A study of Mus musculus with 6 samples.

Results

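The genes described here are 9 members of the fibroblast growth factor (FGF) system of the mouse embryo: the ligands Fgf3, Fgf8, Fgf9, Fgf10 and Fgf15 and the receptors Fgfr1, Fgfr2, Fgfr3 and Fgfr4. They were taken by gene symbol from a table of 32285 genes, and all 9 were present. The cells came from the microdissected cardiogenic region of wild-type C57BL/6 embryos at E10.5 (mid-gestation), which holds the heart with neighbouring pharyngeal tissue. The labels give 6 samples, 3 from vehicle-treated normal glycemic mothers and 3 from mothers made hyperglycemic with streptozotocin, a toxin of the insulin-producing beta cell; the fathers were normal glycemic in both groups. The cells carry 6 library numbers that nothing in the files ties to a sample, so the groups could not be compared here, and each library is described without a treatment.

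FGF ligands are secreted proteins that bind receptor tyrosine kinases together with heparan sulfate. The bound receptor signals through adaptor proteins and the ERK kinase cascade. Its target genes include the transcription factors Etv4 and Etv5 and the feedback inhibitors of the Sprouty (Spry) and dual-specificity phosphatase (Dusp) families. In the pharynx and heart of the embryo, Fgf8 from endoderm, ectoderm and mesoderm and Fgf10 from the second heart field are known for their part in arch and outflow tract formation. Fgf15 is the mouse counterpart of human FGF19. The choice between the IIIb and IIIc forms of the receptors decides which ligands bind, and counts from the 3′ end of transcripts do not tell these forms apart.

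Of 53362 barcodes, 35962 had at least 2500 genes and at most 10% mitochondrial unique molecular identifiers (UMIs, each standing for 1 captured RNA molecule). The libraries held 4903 to 7136 of these cells each, at a median of 30533 to 35634 UMIs. In the unfiltered table, 2777 barcode sequences occurred in more than 1 library, against 141 sequences and 283 cells after filtering. Marker lists placed 23970 cells in a class, each named "-like" after its list, and left 11992 in none. Levels are UMIs per 1000000 UMIs (CPM), summed over the cells of a class, and intervals are exact 95% intervals that cover counting error only. The libraries did not all hold the same tissue: foregut mesenchyme-like cells numbered 3 and 7 in libraries 1 and 2 and 63 to 131 in the other 4, and 137 of 213 paraxial mesoderm-like cells came from library 5. Levels are compared between classes for 1 gene at a time, and not between genes.

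Of the 9 members, 7 reached 10 CPM or more in at least 1 of 28 classes with 50 cells or more, as did 38.6% of all 32285 genes. For 5 of the 9 (Fgf3, Fgf9, Fgf10, Fgfr1 and Fgfr2), the leading class exceeded the runner-up throughout the libraries with 20 or more cells of each. Fgfr1 had only 2 such libraries, and the share of all genes meeting this rule was not computed. Ligands were high in few classes: the median over the classes was 0.457 CPM for Fgf3, 1.9 for Fgf8, 1.8 for Fgf9, 4.77 for Fgf10 and 0.213 for Fgf15. Fgfr1 and Fgfr2 were broad, with class medians of 45.6 and 84.0 CPM. Cells in no class also held UMIs of every member, so the classes are not a full account of sources. Cells with a class held 8643 of 15101 Fgf10 UMIs, 18930 of 24165 Fgf8 UMIs and 38790 of 61288 Fgfr1 UMIs.

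In the GENCODE M21 annotation of GRCm38, Fgf8 lies at chr19:45736798-45742915, Fgf9 at chr14:58070547-58112720 and Fgf10 at chr13:118669791-118792115. The receptor genes are Fgfr1 at chr8:25513654-25575718, Fgfr2 at chr7:130162451-133123350, Fgfr3 at chr5:33721674-33737068 and Fgfr4 at chr13:55152640-55168759. Fgf3 lies next to Fgf4 and Fgf15 on mouse chromosome 7, in a stretch of 62.9 kb from position 144838083 to 144900953 (GRCm38) that holds these 3 protein-coding genes. The sequences upstream of 4 ligands are shown because Fgf3 and Fgf4 were detected in the same endoderm cells, while Fgf9 and Fgf10 were highest in mesoderm. Each runs from 250 to 21 bases before the RefSeq start site (GRCm38.p6), 5′ to 3′ on the gene's strand. All 4 windows lie inside the wider GENCODE spans of their genes, which start upstream of the RefSeq start sites. The spans of Fgf3 and Fgf4 are chr7:144838083-144844436 and chr7:144847367-144865243. The windows begin 0.279 kb (Fgf3), 1.89 kb (Fgf9), 13.8 kb (Fgf4) and 44.7 kb (Fgf10) after the start of the gene's own span. Capitals mark a Gata factor motif.
Fgf3, chr7:144838362-144838591, + strand: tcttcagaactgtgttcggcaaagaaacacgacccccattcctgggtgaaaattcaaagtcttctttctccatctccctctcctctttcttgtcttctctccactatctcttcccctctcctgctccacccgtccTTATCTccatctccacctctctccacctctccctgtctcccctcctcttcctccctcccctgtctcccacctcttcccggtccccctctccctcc
Fgf4, chr7:144861136-144861365, + strand: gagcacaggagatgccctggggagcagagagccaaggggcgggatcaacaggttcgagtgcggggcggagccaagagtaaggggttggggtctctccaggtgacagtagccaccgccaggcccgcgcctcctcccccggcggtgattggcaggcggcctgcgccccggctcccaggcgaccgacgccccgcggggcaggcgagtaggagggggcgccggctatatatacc
Fgf9, chr14:58072436-58072665, + strand: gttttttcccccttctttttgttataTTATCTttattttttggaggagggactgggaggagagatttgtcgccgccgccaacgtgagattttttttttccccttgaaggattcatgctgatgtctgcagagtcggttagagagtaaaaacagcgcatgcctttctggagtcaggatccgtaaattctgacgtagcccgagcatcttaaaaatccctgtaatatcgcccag
Fgf10, chr13:118714449-118714678, + strand: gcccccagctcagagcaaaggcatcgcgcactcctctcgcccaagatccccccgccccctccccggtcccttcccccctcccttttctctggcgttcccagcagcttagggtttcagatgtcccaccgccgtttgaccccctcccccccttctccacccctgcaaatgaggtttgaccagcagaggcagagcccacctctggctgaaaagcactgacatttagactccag

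Both strands of these windows were searched for 5 short motifs. These were GGTGTGA, which T-box factors such as Tbx1 bind, and TAATTA, the core of many homeobox sites. The forkhead motif was TGTTTAC, and that of the Gata factors was AGATAA. The last was CCGGAAGT, bound by ETS factors, the family of Etv4 and Etv5. A Gata match stood 115 bases before the Fgf3 start and another 224 bases before the Fgf9 start, and the windows held no other match. Among 32851 windows of the same length upstream of mouse genes, 9.49% held the Gata motif. The shares for the other motifs were 3.07% (T-box), 4.67% (homeobox), 2.91% (forkhead) and 2.17% (ETS). The GC content was 55.2% for Fgf3, 70.9% for Fgf4, 44.3% for Fgf9 and 62.6% for Fgf10, against a median of 51.7% over all windows. The RefSeq table matched 6 of the 9 members by symbol; Fgf8, Fgf15 and Fgfr1 were the rest.

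Fgf3 was a pharyngeal pouch endoderm gene in these data. Pouch endoderm-like cells are epithelial cells that scored highest on a list of pouch markers. The list includes Pax9, Pax1 and Nkx2-3, not all of which need be on in a cell. These cells numbered 1211. Their Fgf3 level was 44.8 CPM (42.8 to 46.9), and by library it was 46.3, 45.2, 47.3, 38.2, 44.9 and 46.9. Library 4 was the lowest, and each library exceeded every library of the next class. The next class was an epithelium that no sublist resolved, at 12.9 CPM (6.04 to 18.7 over the libraries). The ratio between them was 3.49 (3.17 to 3.845), and the pouch was higher in 6 of 6 libraries. Further classes stayed at 3.37 CPM or less, and erythroid-like cells, which stand here for free RNA in the droplets, were at 0.169 CPM. Hemoglobin made up 39.7% of the UMIs of erythroid-like cells, so their levels and shares of other genes read low as a measure of free RNA. The unresolved epithelium was led by Neurog2, Galnt3, Ctxn3, Foxi2 and Phox2a, genes known from neurogenic placodes and pharyngeal ectoderm, and so carries no tissue name here.

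Fgf15 had the same highest class as Fgf3. It was highest in pouch endoderm-like cells at 13.1 CPM (12.01 to 14.2), with library values of 11.3, 14.7, 12.1, 7.89, 15.6 and 16.02. Smooth muscle and mural-like cells came next at 5.50 CPM (4.27 to 6.99), led by library 3 at 21.7 CPM from 31 cells; the other 5 libraries lay between 1.31 and 6.19 there. The pouch was therefore higher in 5 of 6 libraries. Fgf15 overlaps 2 antisense genes in the annotation, and the sources used here do not state whether counting used strand. In pouch endoderm-like cells these were at 2.62 CPM (Gm26793) and 0.0477 CPM (Gm39119).

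Within the pouch, Fgf3, Fgf4 and Fgf15 were found in the same cells. Each cell was thinned to 10000 UMIs, which kept 1188 of the 1211. Fgf15 was detected in 34.45% of the 238 cells with a Fgf3 UMI (28.4% to 40.9%) and in 2.21% of the 950 without one (1.37% to 3.36%). The share was higher in Fgf3-positive cells in 6 of 6 libraries. Fgf4, an FGF known from the apical ectodermal ridge of the limb bud, was detected in 32.8% of Fgf3-positive cells and 2.42% of the rest, also in 6 of 6 libraries. Read the other way, 79.6% of the 103 cells with Fgf15 also held a Fgf3 UMI (70.5% to 86.9%).

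Over 10 random draws of the thinning, the Fgf15 share in Fgf3-positive cells ran from 28.2% to 34.9%, and that in the other cells from 1.51% to 2.86%. In the unresolved epithelium, Fgf15 was detected in 17.4% of 92 Fgf3-positive cells (10.3% to 26.7%) and 0.922% of 1302 others, higher in 4 of 6 libraries. The annotated span of Fgf4 begins 2.9 kb after the end of Fgf3, and that of Fgf15 begins 31.3 kb after the end of Fgf4. Whether reads of 1 of these genes were counted for its neighbour was not tested.

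The other ligands did not pair with Fgf3 to this extent. In the same pouch cells, Fgf9 was detected in 12.6% of Fgf3-positive cells and 19.8% of the rest, and was higher in 1 of 6 libraries. Fgf10 stood at 13.9% against 7.58%, higher in 5 of 6 libraries, with intervals of 9.74% to 18.9% and 5.98% to 9.45%. For Fgf8 the shares were close: 20.15% of Fgf8-positive and 19.9% of Fgf8-negative pouch cells held a Fgf3 UMI.

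**Figure D1:**
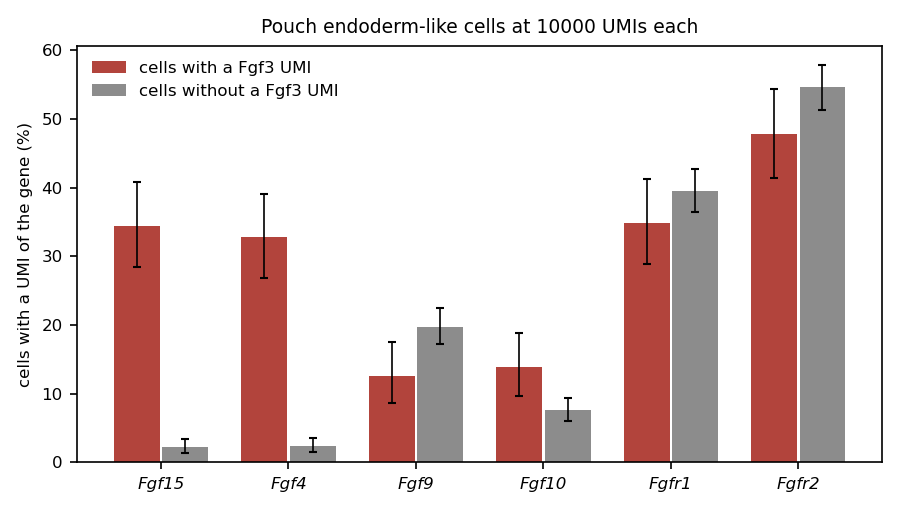
Share of pouch endoderm-like cells (vertical axis, percent, each cell at 10000 UMIs) with a UMI of 6 genes, for cells with a Fgf3 UMI (red, 238 cells) and without (grey, 950 cells); bars are shares and whiskers exact 95% binomial intervals. Fgf15 (34.45% against 2.21%) and Fgf4 (32.8% against 2.42%) differ most between the bars.

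Fgf8 had a wider set of sources, with epithelium at the top and outflow myocardium behind it. The top class depended on the marker rules that assign cells to classes: without 2 restrictions added after values had been seen (Nkx2-1 required for thyroid and lung endoderm, at most 1 epithelial marker in the anterior heart field class), it was the thyroid and lung endoderm-like class, which held 0.34 CPM with them (1 UMI). Pouch endoderm-like cells were at 149 CPM (145 to 153), with library values of 129.5, 177, 146, 166, 136 and 134. The unresolved epithelium was at 146 CPM (142.5 to 149.8), with 144, 191, 146, 126, 148 and 129. These 2 classes could not be ordered: the ratio was 1.02 (0.984 to 1.06) and the pouch was higher in 3 of 6 libraries.

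Surface ectoderm-like cells followed at 83.0 CPM, from 54.7 in library 4 to 101 in library 6. Outflow cardiomyocyte-like cells were at 43.6 CPM (34.7 to 51.3 over the libraries), above the ventricular class at 14.7 CPM in all 6 libraries. Paraxial mesoderm-like cells averaged 28.6 CPM over all libraries, but the 3 libraries with 20 or more such cells stood at 1.47, 27.7 and 74.1 CPM, so this value depends on the library. Anterior heart field and pharyngeal mesoderm-like cells, the progenitors of the outflow tract marked by Isl1 and Tbx1, were at 14.7 CPM (10.8 to 19.97 by library). Thinned to 10000 UMIs, 45.1% of pouch, 34.8% of unresolved epithelial, 19.4% of surface ectoderm-like and 0.269% of erythroid-like cells held a Fgf8 UMI; unthinned, these were 62.8%, 45.3%, 25.7% and 0.940% at median depths of 33045, 26369.5, 24260 and 65583 UMIs.

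Fgf9 and Fgf10 were the ligands with a mesodermal class at the top. Fgf9 was highest in anterior heart field and pharyngeal mesoderm-like cells at 40.1 CPM (37.98 to 42.35), with 56.0, 40.95, 52.1, 33.1, 40.3 and 36.7 by library. The unresolved epithelium was next at 28.4 CPM and was lower in 6 of 6 libraries, although the ranges of the 2 classes overlapped (24.1 to 34.6 against 33.1 to 56.0). Pouch endoderm-like and branchiomeric muscle-like cells were close behind at 24.5 and 24.2 CPM. Fgf9 was also measured in epicardium-like cells, the outer layer of the heart, at 21.01 CPM (18.3 to 23.2 by library).

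Among the ranked classes, Fgf10 was highest in branchiomeric muscle-like cells, the head muscle precursors marked by Msc, Tcf21, Myf5 and Lhx2. The level there was 116 CPM (109 to 123) from 290 cells, with 119, 78.0, 113, 113, 137 and 148 by library. The anterior heart field class stood at 64.1 CPM, with library values of 112, 64.0, 79.5, 49.2, 65.2 and 54.4. The ratio was 1.805 (1.67 to 1.945), and the muscle class was higher in 6 of 6 libraries, least so in library 1. Of the 290 muscle-like cells, 178 scored within 5 points of the gate's margin to another list.

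Next came foregut mesenchyme-like cells at 40.3 CPM, with 17.0 CPM in library 3 and 40.8 to 57.3 in libraries 4 to 6. Of these 354 cells, 222 scored within 5 points of the gate's margin to another list, and the class shares leading genes (Cxcl13, Foxf1, Fendrr and Nkx6-1) with posterior heart field mesoderm-like cells, of which 658 of 1387 lay as near to it. The share of cells with a Fgf10 UMI at 10000 UMIs was 53.55% in the muscle class, 31.1% in the anterior heart field class and 0.269% in erythroid-like cells. Fgf10 was not only mesodermal: pouch endoderm-like cells were at 11.4 CPM, from 6.65 to 18.4 over the libraries.

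**Figure D2:**
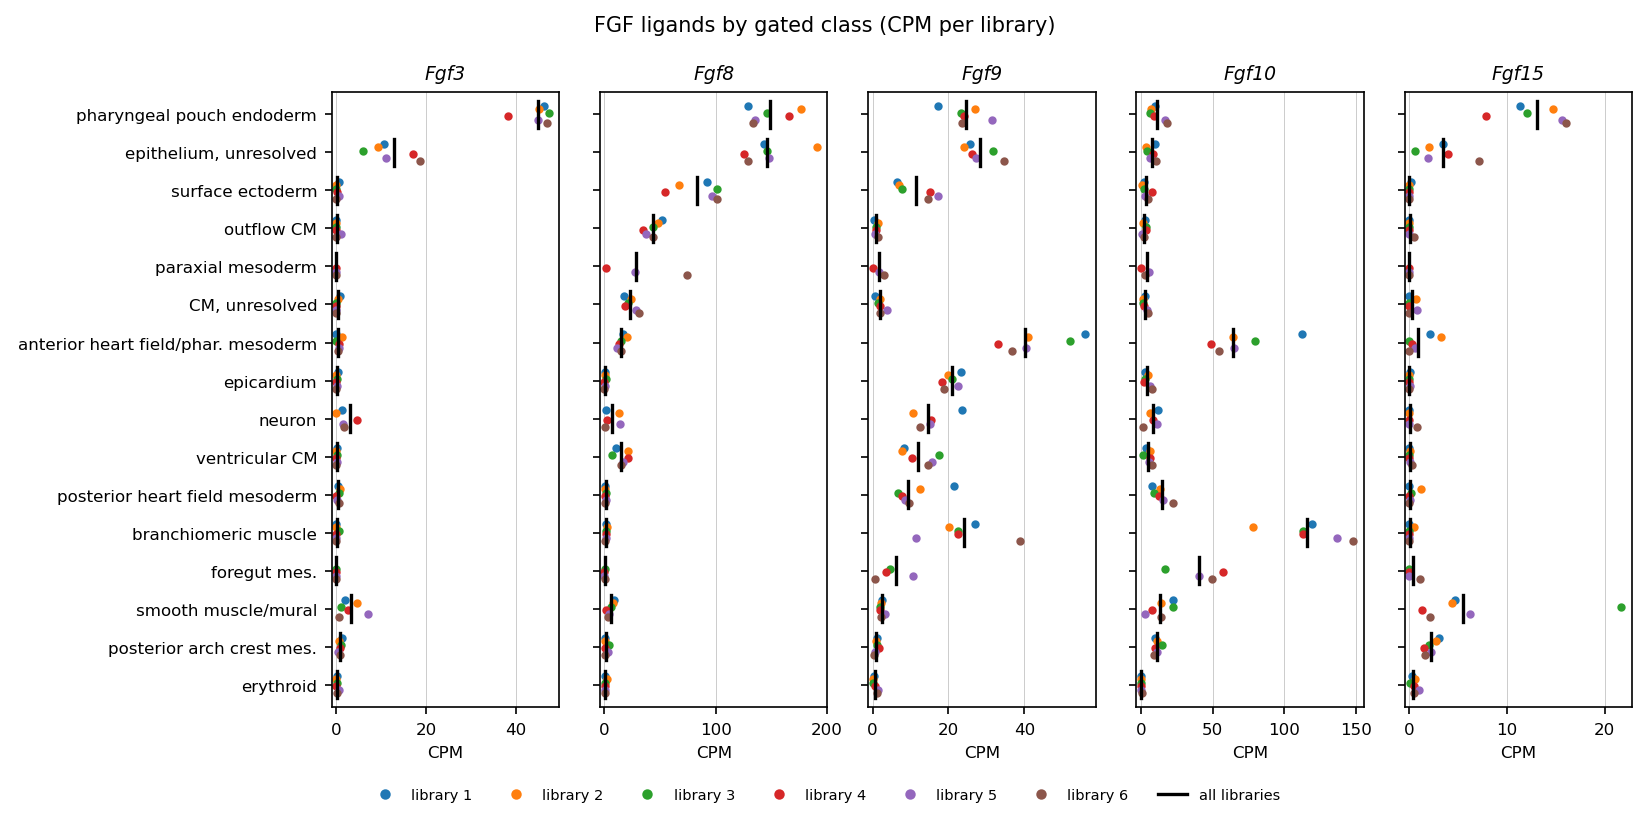
Levels of the 5 ligands (horizontal axes, CPM, each with its own range) in the classes that reached 10 CPM for any ligand, with erythroid-like cells at the bottom. Points are libraries with at least 20 cells of the class, bars all libraries together; Fgf3 stands apart in pouch endoderm (38.2 to 47.3), while for Fgf10 the libraries of branchiomeric muscle (78.0 to 148) overlap those of the anterior heart field class (49.2 to 112).

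Some pairs of the other ligands were detected together more often, and some were not. In anterior heart field and pharyngeal mesoderm-like cells at 10000 UMIs, Fgf9 was detected in 36.65% of 382 Fgf10-positive cells and 23.55% of the rest, higher in 6 of 6 libraries. Fgf8 was detected in 15.97% against 7.93%, higher in 5 of 6. In surface ectoderm-like cells, Fgf9 accompanied Fgf8: 18.5% of 238 Fgf8-positive cells and 5.07% of 986 others held a Fgf9 UMI, higher in 6 of 6 libraries. The unresolved epithelium gave 30.3% and 12.1%, again in 6 of 6. In branchiomeric muscle-like cells, Fgf9 was in 22.5% of Fgf10-positive cells and 16.8% of the rest, with overlapping intervals, and was higher in 3 of 6 libraries. Fgf10 was in 8.02% of Fgf8-positive and 9.51% of Fgf8-negative pouch cells, and in 5.57% and 4.84% in the unresolved epithelium; it was higher in 2 of 6 and 4 of 6 libraries.

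The ligands of the anterior heart field class differed with axial position as read from Hox genes, which mark successively more posterior levels of the pharynx. Cells with at least 2 of Hoxa3, Hoxb3 and Hoxd3 on (392 cells) had Fgf9 at 59.1 CPM (54.4 to 64.0), against 27.6 CPM (25.2 to 30.1) in 660 cells with neither Hox list on. The Hox3-positive cells were higher in 6 of 6 libraries. Cells with neither list on are called Hox-negative here, but they can hold some genes of these lists and other Hox genes. Cells with Hoxa2 and Hoxb2 but not the Hox3 list on (194 cells) were between, at 47.5 CPM, and above the Hox-negative cells in 4 of the 4 libraries with 20 or more of both.

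Fgf10 was lower in the Hox3-positive cells of this class. It stood at 75.4 CPM (71.5 to 79.6) with neither list on, 68.5 CPM with the Hox2 list and 41.65 CPM (37.7 to 45.9) with the Hox3 list. Cells with the Hox2 list were higher than the Hox-negative cells in 2 of 4 libraries and lower in the other 2. The Hox3-positive cells were lower in 6 of 6 libraries (30.9 to 54.9 against 61.1 to 135). Fgf8 showed no order, at 14.1, 20.5 and 12.9 CPM.

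**Figure D3:**
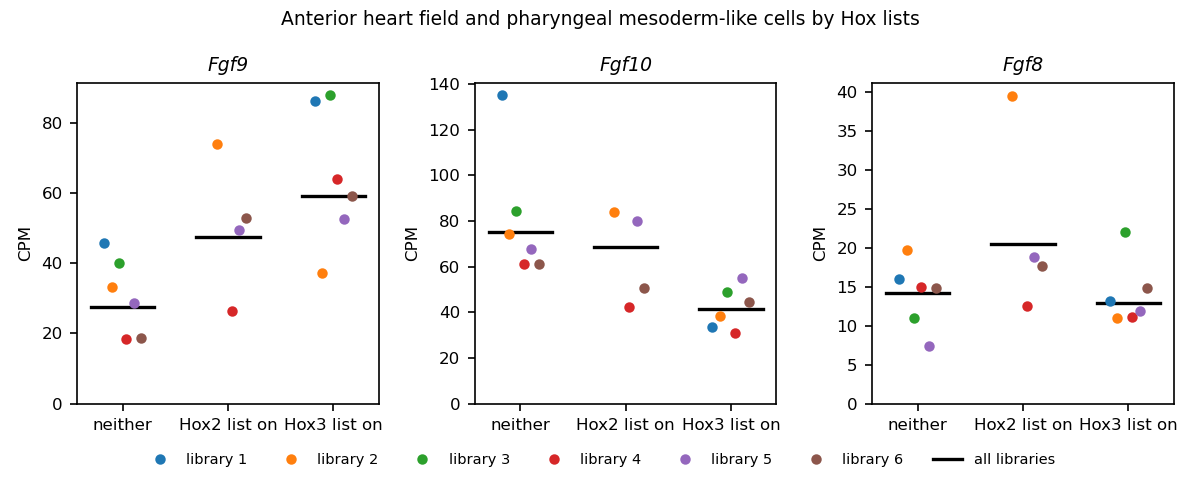
Levels of Fgf9, Fgf10 and Fgf8 (vertical axes, CPM) in anterior heart field and pharyngeal mesoderm-like cells with neither Hox list, the Hox2 list or the Hox3 list on. Points are libraries with at least 20 such cells and bars all libraries together; from neither to the Hox3 list, Fgf9 goes from 27.6 to 59.1 CPM and Fgf10 from 75.4 to 41.65 CPM.

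Epithelial ligands differed with the Hox lists too. In surface ectoderm-like cells, Fgf8 was at 74.3 CPM (71.1 to 77.5) in 1069 Hox-negative cells and 146 CPM (134 to 159) in 142 cells with the Hox2 list on, higher in 4 of 4 libraries. In the unresolved epithelium, Fgf8 was at 116.5 CPM (113 to 120.3) with neither list on and 239 CPM (225 to 253) with the Hox3 list, higher in 4 of 4 libraries. Pouch endoderm-like cells had Fgf8 at 149 and 146 CPM in the Hox-negative and Hox2-positive cells; the latter were lower in 5 of 6 libraries (75.35 to 242.6 against 122.2 to 180.6 CPM), the exception being library 5. Fgf3 in the pouch was at 48.2 CPM with neither list on and 30.9 CPM (26.8 to 35.5) in 185 cells with the Hox2 list, lower in 5 of 6 libraries. Fgf10 in the pouch went from 12.9 to 6.25 CPM, also lower in 5 of 6. Fgf9 in the unresolved epithelium was higher with the Hox2 list in 6 of 6 libraries and with the Hox3 list in 4 of 4. With the Hox2 list it was higher in 4 of 4 libraries in surface ectoderm, 3 of 6 in the pouch and 1 of 3 in Foxa2 foregut endoderm-like cells.

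Fgfr1, the receptor known for its breadth in mesenchyme, was highest in anterior heart field and pharyngeal mesoderm-like cells at 83.6 CPM (80.5 to 86.8). Library values were 82.2, 93.6, 77.8, 83.5, 84.4 and 78.5. Proximal first arch crest mesenchyme-like cells followed at 73.6 CPM. The ratio over all libraries was 1.14 (1.01 to 1.29). Only 2 libraries had 20 or more cells of both classes, and the anterior heart field class was higher in both. The neural crest mesenchyme of the arches was close together, at 70.3 CPM (distal), 68.5 (posterior arches) and 68.3 (second arch). Myocardium was low: outflow, ventricular and atrial cardiomyocyte-like cells were at 15.7, 15.7 and 24.3 CPM. Epicardium-like cells were at 11.6 CPM and erythroid-like cells at 2.38.

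Fgfr2 led in endoderm and ectoderm. Thyroid and lung endoderm-like cells were at 307 CPM (288 to 328) from 158 cells. These are epithelial cells with Nkx2-1 on that scored highest on the thyroid and lung list. The 5 libraries with 20 or more of them gave 272, 259, 291.5, 280.1 and 358. Leading genes of the class included Prlr, Pax8, Nkx2-1 and Tshr. Nkx2-1 was also a leading gene of Foxa2 foregut endoderm-like cells, so it does not set the class apart alone. Surface ectoderm-like cells were at 205 CPM (200.1 to 216.5 over the 6 libraries). The first class was 1.498 times the second (1.396 to 1.606) and higher in 5 of 5 libraries. Foregut endoderm-like cells marked by Foxa2 were at 189 CPM, and posterior heart field and foregut mesenchyme-like cells at 139 and 137. Pouch endoderm-like cells, the highest class of Fgf3 and Fgf15, were at 83.98 CPM, near the median of the classes. Erythroid-like cells held 13.5 CPM of Fgfr2, and 11.3% of them had a UMI at 10000 UMIs against 88.1% of thyroid and lung endoderm-like cells (48.8% and 97.5% unthinned, at median depths of 65583 and 16576.5 UMIs).

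Shares of cells with a Fgfr2 UMI were lower among ligand-positive cells in several classes. In surface ectoderm-like cells, 74.8% of Fgf8-positive and 83.5% of Fgf8-negative cells held a Fgfr2 UMI, and the positive cells were lower in 5 of 6 libraries. In the unresolved epithelium the shares were 54.85% and 65.2%, lower in 6 of 6 libraries. In the pouch they were 50.2% and 55.8%, lower in 5 of 6, with overlapping intervals (45.9% to 54.5% and 51.9% to 59.7%). Other ligands gave lower shares too: 49.7% of Fgf10-positive and 60.1% of Fgf10-negative anterior heart field cells (lower in 6 of 6 libraries), and 47.9% and 54.6% for Fgf3 in the pouch (lower in 5 of 6, intervals overlapping). Fgf8-positive outflow cardiomyocyte-like cells were at 37.1% against 47.9%, also with overlapping intervals, and Fgf10-positive muscle-like cells at 47.0% against 44.3%. Fgfr1 shares did not follow one direction. They were 37.4% with Fgf8 against 30.0% in surface ectoderm (higher in 6 of 6 libraries, with overlapping intervals of 31.2% to 43.9% and 27.2% to 33.0%), 47.8% against 38.1% in the unresolved epithelium (higher in 5 of 6 libraries) and 38.8% against 38.5% in the pouch (higher in 2 of 6). They were lower with Fgf3 in the pouch, at 34.9% against 39.6% (higher in 0 of 6 libraries, intervals overlapping), with Fgf8 in outflow cardiomyocyte-like cells, at 10.0% against 15.7%, and with Fgf10 in the anterior heart field class, at 55.2% against 57.3%, the last 2 pairs also with overlapping intervals. With Fgf10 in muscle-like cells they were 43.7% against 35.1%. The Hox lists gave a like pair of differences in surface ectoderm: Fgfr2 was 213.5 CPM in Hox-negative and 162 CPM in Hox2-positive cells, and Fgfr1 36.9 and 56.8 CPM, each in 4 of 4 libraries. This was not particular to surface ectoderm. Both differences were found in the unresolved epithelium with the Hox3 list (4 of 4 libraries) and in Foxa2 foregut endoderm-like cells with the Hox2 list (3 of 3). In the pouch with the Hox2 list, Fgfr1 was higher in 6 of 6 libraries and Fgfr2 lower in 4 of 6.

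Fgfr3 and Fgfr4 stayed below 10 CPM in every class of 50 cells or more. Fgfr3, best known for restraining bone growth, was at 6.65 CPM (5.28 to 8.27) in smooth muscle and mural-like cells and 6.54 CPM (5.93 to 7.19) in epicardium-like cells, which could not be ordered. It was 4.38 CPM in outflow cardiomyocyte-like cells, where libraries 1 and 2 gave 8.48 and 6.38 CPM and libraries 5 and 6 gave 0.558 and 0.931. Fgfr4, in adult liver the receptor through which Fgf15 acts, was at 7.23 CPM (6.45 to 8.08) in Foxa2 foregut endoderm-like cells, from 2.81 in library 1 to 10.9 in library 3. Thyroid and lung endoderm-like cells were at 5.43 CPM (3.11 to 8.82); the ratio of 1.33 (0.807 to 2.36) does not order these classes, and at 5000 UMIs per cell the second was the higher. Elsewhere among the ranked classes Fgfr4 did not pass 1.44 CPM. Outside the ranking, 23 hepatocyte-like cells held 33.6 CPM of Fgfr4 (37 UMIs) and 9 neural progenitor-like cells 51.8 CPM of Fgfr3 (10 UMIs).

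**Figure D4:**
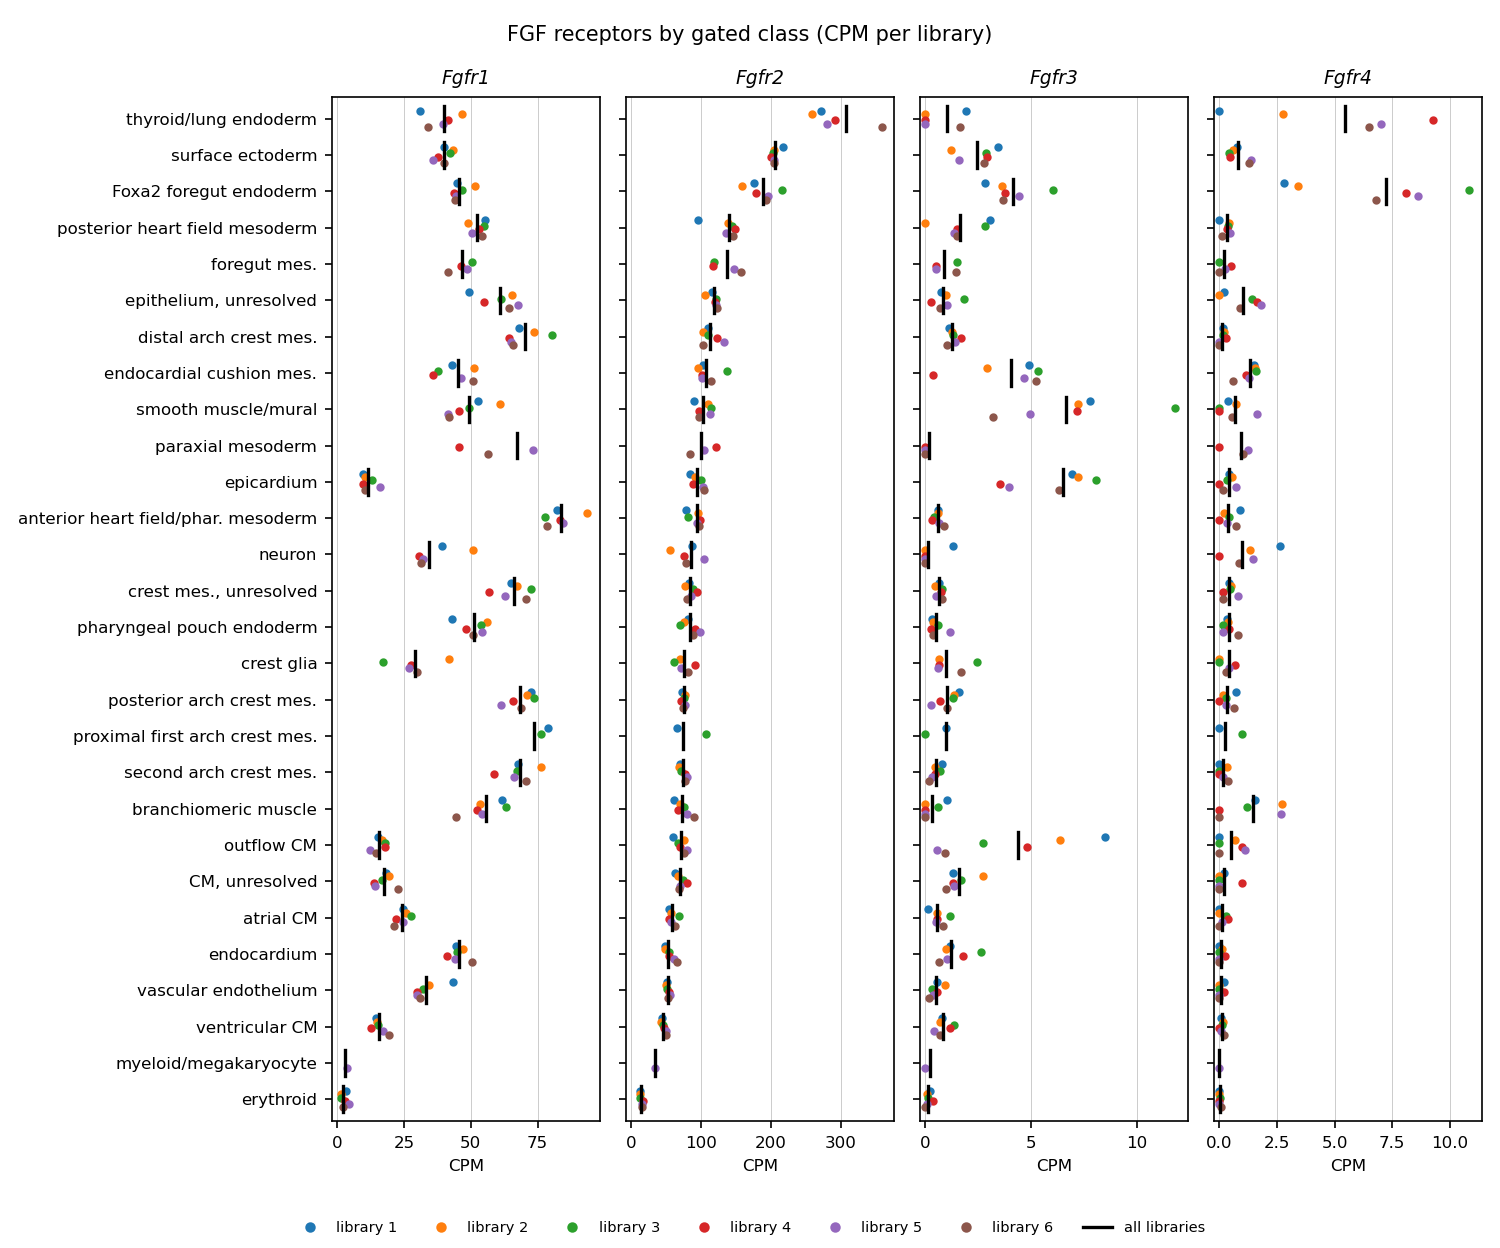
Levels of the 4 receptors (horizontal axes, CPM, each with its own range) in the 28 classes, ordered by Fgfr2. Points are libraries with at least 20 cells of the class, bars all libraries together; Fgfr2 runs from 307 CPM in thyroid and lung endoderm to 13.5 in erythroid cells, and Fgfr1 is highest in the anterior heart field class at 83.6.

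Likeness was measured over the 28 classes as Pearson's r of log2(CPM + 1), a description over classes that share libraries. The 3 genes most like Fgf3 were Sycp2l (r = 0.870), Fgf4 (0.864) and Fgf20 (0.819). For Fgf15 they were Fgf3 (0.797), Fgf4 (0.688) and Gbx2 (0.686). Fgf8 was most like Proser2 (0.830), Fyb2 (0.819) and Cd36 (0.797), and Fgf9 most like Rasef (0.814), Tmtc1 (0.799) and Irx1 (0.783). Fgf10 was most like D430041D05Rik (0.867), Gxylt2 and Eif2b2 (0.809 each). Fgfr1 was closest to Llgl1 (0.970), Mfap2 (0.945) and Tead2 (0.943), and Fgfr2 to Twsg1 (0.957), Zkscan8 (0.956) and Scai (0.952). Those of Fgfr3 were Mmp23 (0.796), Spon2 (0.777) and Gm15867 (0.774), and those of Fgfr4 Gm8909 (0.871), Akr1c19 (0.862) and Amdhd1 (0.852). Among the members themselves, Fgf3 with Fgf15 had the highest r (0.797), followed by Fgfr2 with Fgfr4 (0.660) and Fgfr1 with Fgfr2 (0.633).

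Other secreted ligands were described from a list of 13. Of these, 5 reached 10 CPM in their highest class, a share close to the 38.6% of all genes: Fgf18, known from lung and skeleton, with 38.7 CPM in epicardium-like cells; Fgf1 with 29.2 CPM in thyroid and lung endoderm-like cells; Fgf5 with 21.9 CPM in paraxial mesoderm-like cells; and Fgf4 and Fgf20 with 12.1 and 10.03 CPM in the pouch. The pouch was thus the highest class of Fgf3, Fgf4, Fgf15 and Fgf20, and of Fgf17 at 4.31 CPM.

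Genes that respond to FGF signalling were described from a list of 13, counting those at 10 CPM or more in a class or in all other gated cells. In pouch endoderm-like cells 5 of 11 were at least 2-fold higher than in all other gated cells and none 2-fold lower; of all 9391 genes at that level, 5.59% were 2-fold higher and 7.25% lower. The list's median log2 fold was 0.98, against 0.10 over all genes. Spry1, a feedback inhibitor, was at 119 CPM against 17.4, 6.85-fold (6.63 to 7.07). Spred3, another inhibitor, was at 11.03 against 2.895 CPM, and Spry2 at 57.5 against 21.6. Spred3 counted only through its level in the pouch, and all genes were counted by the same rule. Etv5 and Etv4 were 2.499-fold and 2.05-fold higher. All 5 were higher in 6 of 6 libraries.

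Branchiomeric muscle-like cells, where Fgf10 was highest, had 6 of 11 response genes at least 2-fold higher, against 4.0% of all genes. Etv4 passed in both this class and the pouch. The phosphatase Dusp14 was at 28.4 against 1.85 CPM, 15.4-fold (13.5 to 17.6), and counted only through its level in this class. Etv4 was 4.13-fold, Dusp6 3.199-fold, Il17rd 2.37-fold, Dusp4 2.37-fold and Etv1 2.13-fold higher, each in 6 of 6 libraries. Spry1 was 1.53-fold here.

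The anterior heart field class had 2 of 10 response genes at least 2-fold higher (4.87% of all genes), Etv1 at 2.41-fold and Dusp6 at 2.004-fold. It was not alone: posterior arch, second arch and proximal first arch crest mesenchyme-like cells also had 2 of 10, with none 2-fold lower. Epicardium-like and outflow cardiomyocyte-like cells had 2 of 10 as well, with 3 and 1 lower. The shares of all genes in these classes are not given here. The unresolved epithelium had 4 of 11 (6.33%). Of these, Spred3, at 10.15 CPM, counted only through its level in this class. Surface ectoderm-like cells had 0 of 10, near the 7.71% of all genes. Etv4 there was 0.528 times its level elsewhere (0.457 to 0.608), lower in 6 of 6 libraries. In erythroid-like cells all 10 were at least 2-fold lower, as were 64.9% of all genes.

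**Figure D5:**
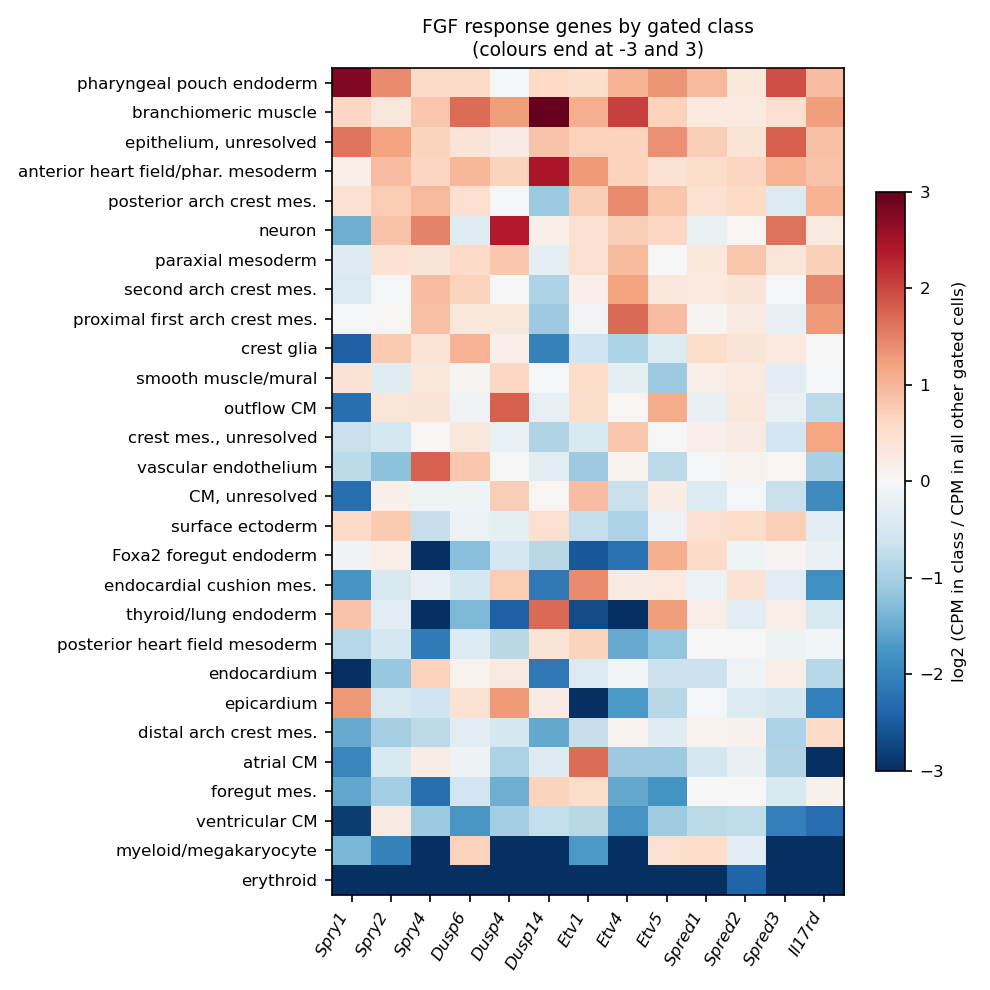
Log2 ratio (colour, ending at -3 and 3) of each FGF response gene (columns) in each class (rows, ordered by median) to all other gated cells. Pouch endoderm, branchiomeric muscle, the unresolved epithelium and the anterior heart field class lie at the top, and Spry1 in the pouch (6.85-fold) and Dusp14 in branchiomeric muscle (15.4-fold) stand out.

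Inside the surface ectoderm class, the Fgf8-positive cells differed from the rest. At 10000 UMIs, 9 of 11 response genes were at least 1.5-fold higher in the 238 Fgf8-positive cells than in the 986 others, against 4.69% of 9406 genes. A gene counted at 10 CPM or more in either group. Etv1, Etv4, Etv5, Dusp4 and Spred3 reached this only in the Fgf8-positive cells, so they entered the count through the group where they are high. Etv4 was at 17.2 against 3.35 CPM (5.15-fold, 3.175 to 8.402), Etv5 at 30.7 against 6.49 (4.725-fold) and Etv1 at 25.6 against 6.09 (4.21-fold), each higher in 6 of 6 libraries. Over 10 draws of the thinning the count was 8 or 9. The leading genes of the Fgf8-positive cells were Trpm3 (7.54-fold), Igf1 (6.44-fold) and Alcam (4.88-fold). These cells also held more of Galnt3 (157 against 36.9 CPM), a leading gene of the unresolved epithelium; its part in the difference was not tested.

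In the pouch the count was 7 for Fgf3 and 3 for Fgf8. Fgf3-positive cells had 7 of 11 response genes at least 1.5-fold higher (5 to 7 over the draws), where 3.06% of genes were. Spry1 was at 208 against 102 CPM (2.035-fold, 1.82 to 2.27), and Etv4 and Etv5 were 2.25-fold and 2.23-fold higher, all in 6 of 6 libraries. Fgf8-positive pouch cells had 3 of 11 (2 to 5 over the draws), with Etv4 at 1.898-fold and Spry1 at 1.03-fold (0.924 to 1.14); 3.14% of all genes passed. The difference between the 2 comparisons was not tested. The leading genes of the Fgf8-positive pouch cells were Wnt6 (92.9 against 12.1 CPM, 7.67-fold), Fyb2 (7.44-fold) and Rarres1 (5.09-fold). Wnt6 is on the surface ectoderm marker list and is the first leading gene of that class. Trpm3, the first leading gene of the Fgf8-positive surface ectoderm-like cells, was 3.52-fold higher too. Whether some of these pouch-like cells are ectoderm was not tested. Dusp4 and Spred3 for Fgf3, and Spred3 for Fgf8, reached 10 CPM only in the ligand-positive pouch cells. In the unresolved epithelium, 5 of 12 were higher in Fgf8-positive cells (3 to 6 over the draws, 3.54% of all genes). Of these, Spry4, Dusp4 and Spred3 reached 10 CPM only in the Fgf8-positive cells. Among mesodermal sources, Fgf10-positive branchiomeric muscle-like cells had 4 of 11 (1 to 5 over the draws; 7.86%). The intervals of 2 of these 4 included 1: Dusp14 at 1.63-fold (0.984 to 2.765) and Etv5 at 1.69-fold (0.963 to 3.06). Within the anterior heart field class, the counts were 0 of 10 for Fgf8-positive (4.88%), 1 of 11 for Fgf10-positive (2.64%) and 1 of 11 for Fgf9-positive cells (3.09%). The gene counted for Fgf10 was Dusp14, which reached 10 CPM only in the Fgf10-positive cells of this class. Spry1 was at least 1.5-fold lower there with Fgf8, at 0.65 times (0.385 to 1.036, higher in 2 of 6 libraries; 5.53% of all genes were lower), and with Fgf9, at 0.595 times (0.429 to 0.8125, higher in 1 of 6; 2.99%). Fgf8-positive outflow cardiomyocyte-like cells had 0 of 9 response genes 1.5-fold higher and 1 lower (Spred1), where 6.73% of all genes were higher and 15.2% lower.

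Adaptor and ERK cascade genes carry the signal from the receptors. None of the 16 adaptor and ERK cascade genes at the level (of 17 in the list) was 2-fold higher or lower in the pouch or the anterior heart field class (5.60% of all genes were lower in the last), and 1 was 2-fold higher in branchiomeric muscle-like cells (4.0% of all genes). In endocardium-like cells 3 of the 16 were at least 2-fold higher (10.1% of all genes), and in erythroid-like cells 11 were at least 2-fold lower (64.9%). Among heparan sulfate genes, whose products bind FGFs and shape their spread, 7 of 22 were at least 2-fold higher in the pouch (5.59% of all genes), 8 of 22 in the unresolved epithelium (6.33%) and 6 of 21 in surface ectoderm-like cells (7.71%). The count was 8 of 21 in Foxa2 foregut endoderm-like cells (7.29%) and 7 of 23 in thyroid and lung endoderm-like cells, where 19.7% of all genes passed. Hs3st1 (27.6 CPM in the pouch) and Ndst2 (12.2 CPM in thyroid and lung endoderm-like cells) counted there only through their level in that class. Any further such genes in these classes were not singled out, and all genes were counted by the same rule. At least 2-fold lower were 1 in the pouch (7.25% of all genes) and 2 in surface ectoderm-like cells. Some classes went the other way. In vascular endothelium-like, atrial cardiomyocyte-like and endocardium-like cells 13, 11 and 10 of 21 were lower, and 1, 0 and 1 higher. Shares of all genes that were lower are not given here outside the pouch. Sulf1, which trims sulfate groups from heparan sulfate, was highest in the pouch at 322 CPM (4.77-fold over the other cells). Hs6st2 and the glypican Gpc4 were highest in surface ectoderm-like cells at 362 and 124 CPM. Among co-receptors, Flrt2 was highest in epicardium-like cells at 318 CPM, and the decoy receptor Fgfrl1 in endocardial cushion mesenchyme-like cells at 78.6 CPM. Klb, the co-receptor that Fgf15 needs with Fgfr4, did not pass 0.777 CPM in any of the 28 classes.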

How the data were processed

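Single-cell RNA libraries were made with a Chromium 3′ v3 kit, per the labels' protocols; the sample descriptions name a chromatin assay instead, while titles, library source and counts are those of RNA. CASAVA 1.8, Cell Ranger 5.0.0, Seurat 4 and build mm10 are named in the submitters' processing notes, without settings; exclusion of doublets or free RNA is not given in the sources used here. The deposited matrix holds UMI counts per gene and barcode, whole numbers for 6 barcode suffixes pooled in 1 table.

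From these counts, barcodes with at least 2500 genes and at most 10% mitochondrial UMIs were kept. A marker was on in a cell at 1 UMI or more and at least 10% of its 99.9th percentile CPM. A cell joined the main class with the largest share of its markers on, at 50% or more and 12 points above the next. Epithelial and cardiomyocyte cells were then divided by sublists, at a lower share and a smaller margin. Endothelial and crest mesenchyme cells were divided by fixed shares of their sublists, without a margin. There were 2 restrictions added after values had been seen: at most 1 epithelial marker in the anterior heart field class, and Nkx2-1 on for thyroid and lung endoderm. The members, gene lists and gate settings were chosen with earlier results of these data known. No doublet caller was run; the cells with most UMIs were left out as an alternative.

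Levels are summed UMIs per 1000000, with exact Poisson 95% intervals; shares have Clopper-Pearson intervals, and ratios an interval from the exact binomial. All cover counting error only, and 3 UMIs were the floor. Since no source links a suffix to a sample, the matrix counts as 1 sample: there is no p-value, and libraries are given singly. All 9 members were named, but genes from the lists were not always those with the largest fold. Ncam1 and Hs3st1 were each 14.5-fold over other gated cells in their highest class. Hs3st1 was named above only for its pouch count, and Ncam1 was not described. Nor were the 4 intracellular FGF homologous factors. The 3 most alike genes were taken among those at 10 CPM. On simulated counts with 200 changed genes, all 50 genes of each fold size (2.5, 4, 0.4 and 0.25) passed the 2-fold rule. The simulated class held 5% of UMIs with counting error only, so smaller classes and variation between libraries were not covered. Feature IDs matched GENCODE M21 (GRCm38) for 99.6%. Python 3.11.15, NumPy 2.4.6 and SciPy 1.17.1 were used.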

Additional observations from a re-analysis of the deposited data

How the results depend on the processing

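The members' levels and order, and Fgf15 beside Fgf3, were recomputed in other settings. So were the response genes by class in the pouch, branchiomeric muscle and surface ectoderm. The settings were a wider cell filter, a stricter and a looser gate, and thinning to 5000 UMIs. Further settings left out the 5% of cells with most UMIs, or 2890 cells whose barcode sequence occurred in more than 1 library before filtering. The median of libraries was used where it applied, and each library was left out in turn. The gate without the 2 restrictions was chosen after seeing the data. The Hox-list values, the counts in ligand-positive cells, the other shares of cells with 2 genes, and the heparan sulfate and adaptor counts were not recomputed in these settings. The 7 members at 10 CPM were 7 in all of these, and 9 at a level of 5 CPM. Members whose highest class led in every library were 4 to 6. At least 7 of 9 members kept their highest class. Fgf8 moved to the unresolved epithelium without library 4, in the median of libraries and without shared barcodes, and to the thyroid and lung class in the gate without the restrictions. Fgfr3 moved to epicardium-like cells in 6 settings and Fgfr4 to the thyroid and lung class at 5000 UMIs. Response genes 2-fold higher in the pouch were 4 to 7, in branchiomeric muscle 6; at 3-fold they were 2 and 3. Over 14 settings the log2 fold over other gated cells ran from 5.02 to 5.66 for Fgf3, 3.02 to 3.97 for Fgf8, 2.34 to 3.07 for Fgf9 and 3.57 to 4.31 for Fgf10. The excess of Fgf15 in Fgf3-positive pouch cells was 28.3 to 34.4 percentage points, and 20.4 at 5000 UMIs. No paired analysis was possible because the libraries are not tied to the streptozotocin and vehicle samples, which were therefore not compared; classes were compared within each library. Depth limits Fgfr4, Fgf15 and Fgfr3 most, with 840, 1855 and 2125 UMIs in all kept cells.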
